A study of Mus musculus with 4 samples.

Results

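The AP-1 and BATF transcription factors and their partner Irf4 were followed in mouse T follicular helper (Tfh) cells and in non-Tfh cells of the same antigen specificity. The 10 genes, of 39179 gene identifiers in the counts, were taken as listed symbols: Jun, Junb and Jund, Fos, Fosb and Fosl2, Batf, Batf3 and Jdp2, and Irf4. Each symbol matched 1 Ensembl identifier. Of these, 9 passed the filter on low counts and were tested; Batf3 did not and is described by its counts. T cells carrying the OT-II receptor transgene, which recognises a peptide of ovalbumin, and marked by Thy-1.1 were transferred into C57BL/6 mice. The hosts were then immunised under the skin with ovalbumin coupled to nitrophenol, and inguinal lymph nodes were pooled on day 8. The transferred cells were sorted by flow cytometry into a Tfh fraction, with high CD44 and with CXCR5 and PD-1 on the surface, and a non-Tfh fraction that lacked CXCR5 and PD-1. Stranded total RNA libraries named T32 and T53 were made from each fraction, which gave 2 Tfh and 2 non-Tfh libraries. Both fractions carry the same receptor transgene, so the comparison covers 1 antigen specificity, and both come from C57BL/6 hosts that keep lymphocytes of their own. The labels do not tell whether T32 and T53 are separate animals, pools or experiments, so each p-value is set against the spread of these libraries alone, and that spread may be technical.

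Jun and Fos proteins are basic leucine zipper factors that pair through their zippers and bind DNA as the AP-1 complex, which in T cells is made and activated after stimulation of the antigen receptor. Batf and Batf3 have a zipper and a basic region but no activation domain of the Fos kind; they pair with Jun proteins, and such a pair binds composite sites together with Irf4 or Irf8. Mouse T cells without Batf or without Irf4 make few Tfh cells, and both factors are also needed for other effector helper fates. Jdp2 is a small zipper protein that pairs with Jun and is best known as a repressor of AP-1 target genes.

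Library totals ran from 5725358 to 13360563 counts, so that 1 count was worth 0.0748 to 0.175 CPM, the count scaled to the size of its library. Of the sorting genes, Cxcr5 and Pdcd1 followed the labels. Cxcr5 was at 747 and 712 CPM in Tfh libraries, against 52.6 and 56 CPM in non-Tfh libraries. Pdcd1, which encodes PD-1, was at 536 and 576 CPM in Tfh libraries, against 57 and 53.4 CPM in non-Tfh libraries. Cd44 was at 231 and 319 CPM in Tfh libraries, against 163 and 218 CPM in non-Tfh libraries, and was not called (adjusted p = 0.21, edgeR). All 10 T cell markers examined, Cd3e and Cd4 among them, passed the count filter; edgeR called 0 of them at the adjusted threshold and 2 at an unadjusted p under 0.05, DESeq2 called 1 higher and limma-voom 0. The summed level of 12 B cell markers was 146 and 142 CPM in Tfh libraries, against 12.5 and 21.7 CPM in non-Tfh libraries. Cd22, an inhibitory receptor best known from B cells, made up most of that sum, with 139.5 and 134 CPM in Tfh libraries and 9.61 and 14.8 CPM in non-Tfh libraries. Cd79a, a chain of the B cell receptor complex, had 1 and 0 counts in Tfh libraries and 3 and 6 counts in non-Tfh libraries. Summed levels of the other marker lists were 110.1 and 119 CPM in Tfh libraries, against 45.4 and 37.7 CPM in non-Tfh libraries, for germinal centre B cells (Mef2b and Gcsam at 0 counts throughout), and at most 17.3 CPM in any library for plasma cells, dendritic cells, macrophages, CD8 T cells and granulocytes. Of these lists, 2 of the 2 B cell markers tested (Cd22 and Pax5) and 2 of the 3 germinal centre markers tested (Fas and S1pr2, which T cells also express) were called higher in Tfh cells, as Batf and Jdp2 were, and their part in the member results was not tested.

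Batf and Jdp2 were the members that rose in Tfh cells, and no member passed the test as lower. A called gene is one with an adjusted p under 0.05 in edgeR's quasi-likelihood test, adjusted after Benjamini and Hochberg across the 11702 genes that passed the filter. By that rule 2 of the 9 tested members were called, while 8.49% of all genes tested were called (4.47% higher and 4.02% lower in Tfh). The count of 0 members called lower depended on the test, since DESeq2 called Fosb and Irf4 lower and limma-voom called no member lower. At an unadjusted p under 0.05, 4 members passed (Batf and Jdp2 higher, Fosb and Irf4 lower), against 22.0% of all genes. The 2 Tfh values lay wholly above or below the 2 non-Tfh values for 5 of the 9 tested members, Batf and Jdp2 above and Junb, Fosb and Irf4 below, against 52.2% of all genes (26.6% above and 25.6% below). An exact permutation test of 2 libraries against 2 cannot give a p below 0.333, so single values outside the fit carry no test here.

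**Figure D1:**
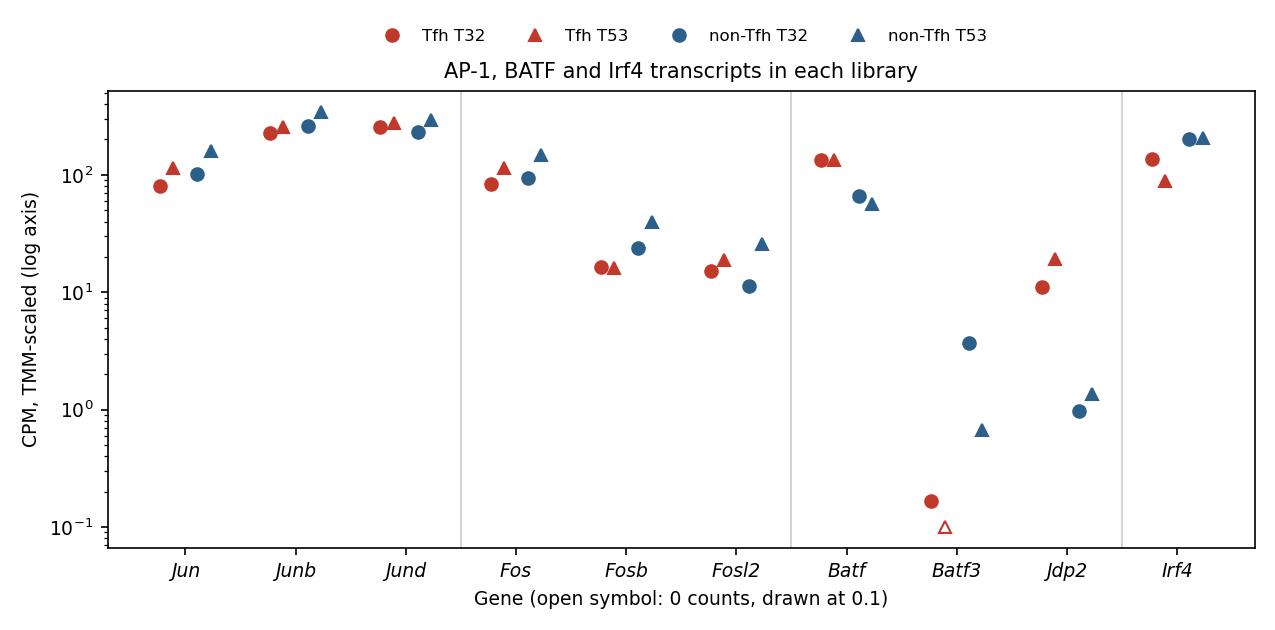
Level of each of the 10 genes in each library, in TMM-scaled CPM on a log axis, with Tfh libraries in red left of non-Tfh libraries in blue, circles for T32 and triangles for T53; the open triangle is a count of 0. Batf and Jdp2 lie higher in both Tfh libraries, Irf4 and Fosb lower, and Batf3 is near 0 in Tfh libraries.

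Batf and Jdp2 lie beside each other and beside Fos on mouse chromosome 12 in one orientation. In GRCm38, with the GENCODE M21 gene models, Fos spans chr12:85473890-85477273, Jdp2 chr12:85599027-85639878 and Batf chr12:85686669-85709087, all on the plus strand. The Fos and Jdp2 starts lie 212.8 kb and 87.6 kb before the Batf start. The promoter windows of these 3 neighbours are printed because 2 of them are the members that rose and all 3 share a short motif. Each runs from 250 bases before a RefSeq transcript start to 50 bases after it (GRCm38.p6, plus strand), and the capitals mark TGACGT, the core of the cyclic AMP response element that CREB, ATF and some Jun-containing pairs bind. The windows are chr12:85473640-85473939 for Fos, chr12:85599166-85599465 for the second of 3 RefSeq starts of Jdp2, which was picked because it holds the motif, and chr12:85686470-85686769 for Batf.
Fos: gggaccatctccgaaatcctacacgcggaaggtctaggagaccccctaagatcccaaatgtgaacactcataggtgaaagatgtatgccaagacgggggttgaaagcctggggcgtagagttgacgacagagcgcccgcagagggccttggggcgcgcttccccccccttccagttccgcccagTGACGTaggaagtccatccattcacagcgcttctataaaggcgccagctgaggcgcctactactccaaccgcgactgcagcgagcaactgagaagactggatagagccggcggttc
Jdp2: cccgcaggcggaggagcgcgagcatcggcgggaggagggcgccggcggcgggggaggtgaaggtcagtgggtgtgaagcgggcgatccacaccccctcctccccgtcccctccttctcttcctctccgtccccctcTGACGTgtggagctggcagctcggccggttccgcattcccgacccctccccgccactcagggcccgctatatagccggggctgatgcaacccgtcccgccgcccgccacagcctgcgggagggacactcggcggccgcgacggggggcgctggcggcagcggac
Batf: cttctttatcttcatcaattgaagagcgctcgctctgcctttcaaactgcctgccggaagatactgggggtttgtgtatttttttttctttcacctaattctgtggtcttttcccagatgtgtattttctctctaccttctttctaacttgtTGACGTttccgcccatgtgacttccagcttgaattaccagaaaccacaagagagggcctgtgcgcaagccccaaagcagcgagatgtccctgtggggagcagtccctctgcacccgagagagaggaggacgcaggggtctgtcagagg
The motif lies 66, 114 and 98 bases before the start in Fos, Jdp2 and Batf. All 10 members matched RefSeq, with 12 windows in all, and these 3 neighbours were the members whose windows held TGACGT or its other-strand form ACGTCA, against 8.37% of 27025 genes with a RefSeq window of the same length (7.51% of 32851 windows). The AP-1 site TGANTCA, the same on both strands, was in 0 member windows and in 7.81% of all windows. The longer TGACNTCA, or TGANGTCA on the other strand, was in the Jun window, as TGACATCA, 45 bases before the start, and in 8.83% of all windows; with G at its N it would contain TGACGT. The interferon-factor core GAAA repeated after any 2 bases, on either strand, was in the Fosl2 window and in 3.44% of all windows. A match describes these letters in these windows and is not evidence of binding.

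Batf, the zipper partner of Jun proteins at composite sites with Irf4, was 2.17-fold higher in Tfh cells. It was at 134 and 133 CPM in Tfh libraries, against 65.9 and 56.9 CPM in non-Tfh libraries. The Tfh libraries were nearly equal and both lay above both non-Tfh libraries. Its level averaged 133 ± 0.801 CPM over Tfh libraries, against 61.4 ± 6.39 CPM over non-Tfh libraries (SD, n = 2 each), a log2 fold change of 1.12 ± 0.12 (SE; 95% interval 0.82 to 1.41) with an adjusted p of 0.00468 by edgeR's quasi-likelihood test. With each library left out in turn the log2 fold change stayed between 1.02 and 1.23, with adjusted p at most 0.0118, and the gene was called under all 13 alternatives run.

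Jdp2, the repressor type of Jun partner, showed the largest log2 fold change among the tested members. Its level was 11 and 19.2 CPM in Tfh libraries (131 and 110 counts), against 0.968 and 1.35 CPM in non-Tfh libraries (13 and 12 counts). Both Tfh libraries lay far above both non-Tfh libraries, although the Tfh libraries differed more from each other than those of Batf did. The level averaged 15.1 ± 5.82 CPM over Tfh libraries, against 1.16 ± 0.269 CPM over non-Tfh libraries (SD, n = 2 each). The fitted difference was 13-fold, a log2 fold change of 3.70 ± 0.40 (SE; 95% interval 2.73 to 4.66) with an adjusted p of 0.00455. Its log2 fold change lay between 3.27 and 4.07 with a library left out, and it was called under all 13 alternatives, with adjusted p at most 0.0163. A divergent lncRNA gene of the annotation, Gm47863, overlaps Jdp2 on the other strand and was not used here. In bulk RNA of sorted cells, more cells that transcribe a gene and more RNA per cell cannot be told apart, and this holds for every difference given here.

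Genes on either side of the Fos, Jdp2 and Batf stretch did not pass the test. Of the 10 genes tested in the stretch from 250 kb before Fos to 250 kb after Batf, Jdp2 and Batf were called. Log2 fold changes of the others were -0.0043 ± 0.18 for Eif2b2, a subunit of translation initiation factor eIF2B, -0.026 ± 0.15 for Mlh3, a mismatch repair gene, and -0.0072 ± 0.27 for Acyp1, an acylphosphatase. On the same scale the mitotic kinase gene Nek9 was at 0.12 ± 0.11 and the vesicle transport gene Tmed10 at 0.11 ± 0.12. Beyond Batf, Erg28, a sterol synthesis scaffold gene, was at 0.077 ± 0.16 and Ttll5, which encodes a tubulin glutamylase, at 0.27 ± 0.14. Their 95% intervals all included 0 and the widest, that of Acyp1, ran from -0.65 to 0.64. Fos, which lies before Jdp2, also had an interval that included 0.

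**Figure D2:**
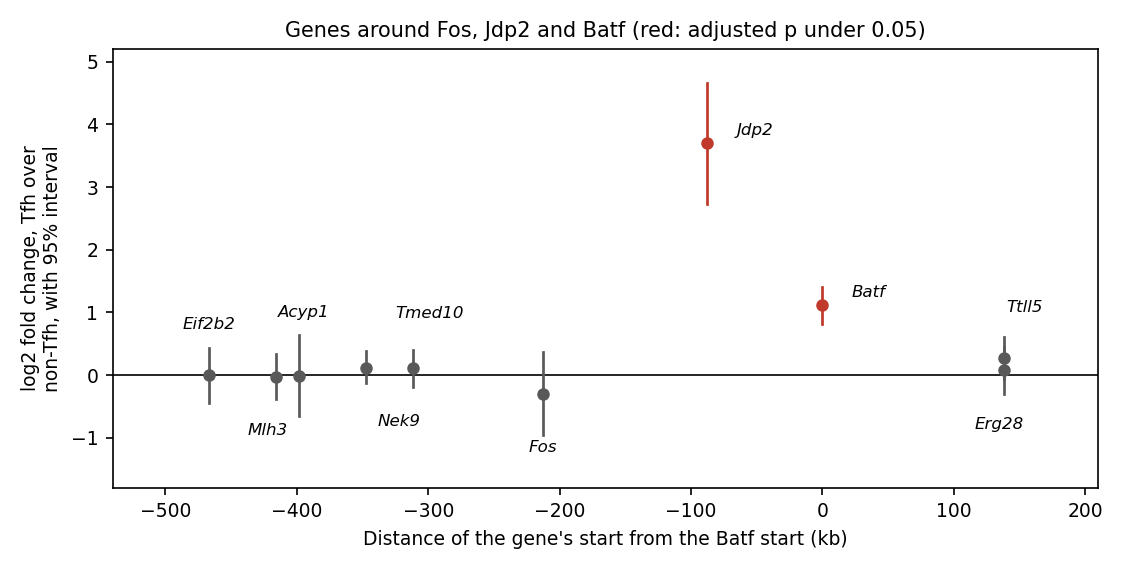
Log2 fold change, Tfh over non-Tfh, of the 10 tested genes around Fos, Jdp2 and Batf against the distance of each gene's start from the Batf start in kb, with 95% intervals as lines and called genes in red. Jdp2 at 3.70 and Batf at 1.12 stand above genes whose intervals include 0.

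Batf3, which shares the zipper type of Batf and is best known for the development of cross-presenting dendritic cells, was scarce in all libraries (chr1:191097847-191108945, plus strand). It had 2 and 0 counts in Tfh libraries, against 50 and 6 counts in non-Tfh libraries, or 0.168 and 0 CPM against 3.72 and 0.674 CPM. Most non-Tfh counts came from the library T32. The ratio of pooled counts, Tfh over non-Tfh and scaled to library size, was 0.0451, with an exact 95% interval of 0.00534 to 0.171 that covers counting error only. It was 0.168 without the non-Tfh library T32. The gene did not pass the count filter and has no call in the main test. Without the filter edgeR called it lower (adjusted p = 6.68e-06), whereas DESeq2 did not (adjusted p = 0.0628). Batf3 also entered edgeR fits with a library left out, which differed in their calls. Its log2 fold change was -7.43 and -3.68 without the Tfh libraries T32 and T53. It was -4.92 without the non-Tfh library T53, a fit whose non-Tfh counts all came from T32. The summed level of 12 dendritic cell markers was 6.7 and 8.03 CPM in Tfh libraries, against 7.9 and 15.6 CPM in non-Tfh libraries. That sum was higher in the non-Tfh library T53. Single markers, named after their values were seen, went both ways between the non-Tfh libraries. Ccl22 and Fscn1 had 7 counts each in the non-Tfh library T32 and 1 and 0 counts in T53. Itgax, Wdfy4 and Xcr1 had 2, 4 and 5 counts in the non-Tfh library T32 and 16, 19 and 10 counts in T53. The part of dendritic cells in the Batf3 counts was not tested. Of the 12 markers, Clec9a and Siglech had 0 counts in all 4 libraries, and 3 passed the count filter, with 0 called. These 3 were Flt3, H2-DMb2 and Zbtb46. Flt3 had 23 and 10 counts in Tfh libraries, against 17 and 16 in non-Tfh libraries. H2-DMb2 had 45 and 23 against 44 and 58, and Zbtb46 had 2 and 6 against 19 and 18.

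Irf4, an interferon regulatory factor that the antigen receptor induces and that binds composite sites with Batf and Jun, was lower in both Tfh libraries but did not pass the adjusted threshold (chr13:30749226-30766976, plus strand). It was at 136 and 87.7 CPM in Tfh libraries, against 201 and 204 CPM in non-Tfh libraries. The groups did not overlap, and the spread lay almost wholly within the Tfh libraries, with means of 112 ± 34.1 CPM over Tfh libraries, against 202 ± 2.03 CPM over non-Tfh libraries (SD, n = 2 each). The log2 fold change was -0.85 ± 0.21 (SE; 95% interval -1.35 to -0.34), with an unadjusted p of 0.00619 and an adjusted p of 0.062 by edgeR's quasi-likelihood test. The same gene was called lower by DESeq2 (-0.86, adjusted p = 0.00217). The log2 fold change was -1.20 without the Tfh library T32 and -0.56 without the Tfh library T53. Without the non-Tfh libraries T32 and T53 it was -0.86 and -0.84. The direction was thus the same with any library left out, while the size depended in part on the Tfh libraries.

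Among the Fos genes, whose proteins do not pair with themselves and mostly pair with Jun, edgeR called 0 of 3, with 1 at an unadjusted p under 0.05; DESeq2 called 1 and limma-voom 0. Fosb was at 16.3 and 16.2 CPM in Tfh libraries, against 23.8 and 39.5 CPM in non-Tfh libraries (chr7:19302696-19310051, minus strand). Both Tfh libraries lay below both non-Tfh libraries, which were wide apart. Its log2 fold change was -0.95 ± 0.26 (SE; 95% interval -1.58 to -0.32), with an adjusted p of 0.0828. DESeq2 called Fosb lower (-0.97, adjusted p = 0.033), as did the fit without the non-Tfh library T32 (-1.28, adjusted p = 0.00824), whereas without the non-Tfh library T53 the log2 fold change was -0.55 with an adjusted p of 0.157. Fos, the founding member of the group, was at 82.8 and 114 CPM in Tfh libraries, against 93.3 and 148 CPM in non-Tfh libraries. These values overlapped, with a log2 fold change of -0.30 ± 0.26 (95% interval -0.96 to 0.37; adjusted p = 0.603). Fosl2, also called Fra-2, was at 15.3 and 18.9 CPM in Tfh libraries, against 11.2 and 25.5 CPM in non-Tfh libraries (chr5:32135801-32157842, plus strand). The non-Tfh libraries enclosed the Tfh libraries, and the log2 fold change of -0.095 ± 0.41 had a 95% interval of -1.12 to 0.93 that leaves changes of about 2-fold in either direction possible.

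The Jun genes encode the partners shared by the Fos and Batf proteins; edgeR called 0 of 3, also at an unadjusted p under 0.05, as did DESeq2 and limma-voom. Jun was at 79.8 and 114 CPM in Tfh libraries, against 101 and 158 CPM in non-Tfh libraries (chr4:95049034-95052222, minus strand). The groups overlapped, and the log2 fold change was -0.42 ± 0.27 (SE; 95% interval -1.11 to 0.27) with an adjusted p of 0.462. Junb, which is needed with Batf for the Th17 programme in mice, was at 229 and 254 CPM in Tfh libraries, against 260.4 and 345 CPM in non-Tfh libraries (chr8:84974484-84978718, minus strand). Tfh libraries were lower without overlap, by a log2 fold change of -0.32 ± 0.16 whose 95% interval of -0.72 to 0.072 included 0 (adjusted p = 0.321). Jund, which is less dependent on stimulation than Jun or Junb in many cell types, was at 254 and 275 CPM in Tfh libraries, against 230.3 and 295 CPM in non-Tfh libraries (chr8:70698949-70700616, plus strand). Its log2 fold change of 0.011 ± 0.15 had a 95% interval of -0.36 to 0.38 (adjusted p = 0.982), which holds changes of up to 1.3-fold.

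**Figure D3:**
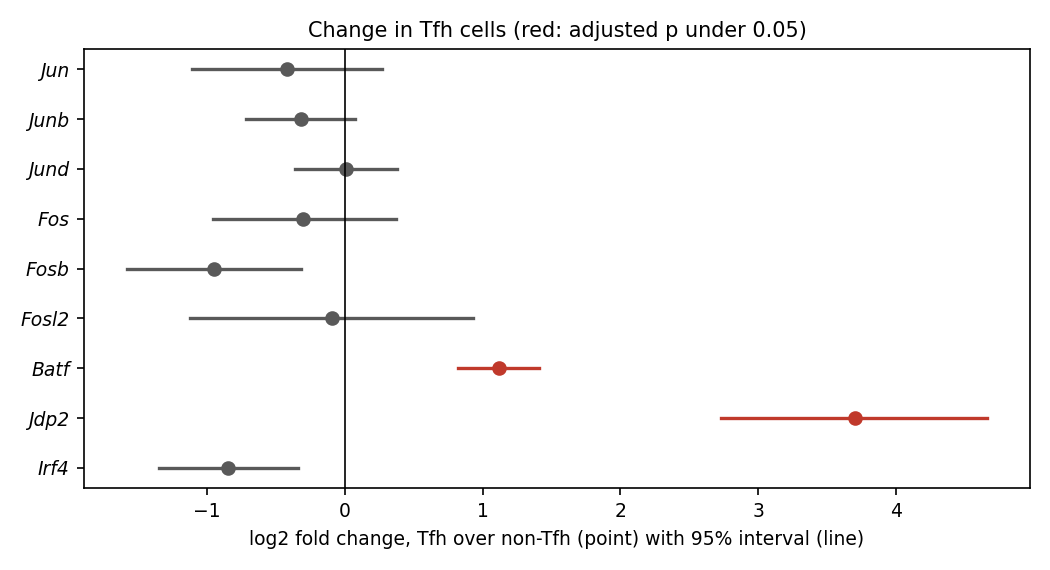
Log2 fold change, Tfh over non-Tfh, of the 9 tested members (points) with 95% intervals (lines), in the order Jun, Fos and Batf genes, Jdp2 and Irf4; called genes are red. The intervals of Batf, Jdp2, Fosb and Irf4 exclude 0, and the adjusted p was under 0.05 for Batf and Jdp2.

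Reads of 3 Jun genes could mix with those of overlapping genes if counting ignored strand, which the sources used here do not state. The antisense gene Junos at Jun had 9 and 3 counts in Tfh libraries and 9 and 6 counts in non-Tfh libraries, and the antisense gene Gm11175 at Jund had 13 and 6 counts in Tfh libraries and 22 and 14 counts in non-Tfh libraries. Prdx2, a peroxiredoxin gene that overlaps Junb on the other strand, had 846 and 382 counts in Tfh libraries and 832 and 394 counts in non-Tfh libraries. Junb itself had 2732 and 1455 counts in Tfh libraries and 3496 and 3066 counts in non-Tfh libraries. These are counts of whole genes. Reads in the shared stretches were not counted, so the size of a possible overlap is not known for Jun, Jund or Junb.

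Per length, Jund and Junb were the highest members in both fractions, and Jdp2 changed its place in the order most. Levels per length are TMM-scaled CPM divided by the length of the exon union in kilobases (RPKM), as means and SD over 2 libraries. In Tfh cells the levels were 158 ± 8.82 for Jund, 105 ± 7.76 for Junb, 94.9 ± 0.569 for Batf, 41.8 ± 9.35 for Fos, 30.4 ± 7.59 for Jun, 22.8 ± 6.95 for Irf4, 7.03 ± 2.71 for Jdp2, 2.6 ± 0.00113 for Fosb, 1.77 ± 0.258 for Fosl2 and 0.0525 ± 0.0742 for Batf3. In non-Tfh cells they were 157 ± 27.3 for Jund, 131 ± 25.9 for Junb, 51.3 ± 16.4 for Fos, 43.7 ± 4.55 for Batf, 41.3 ± 0.413 for Irf4, 40.7 ± 12.8 for Jun, 5.07 ± 1.77 for Fosb, 1.9 ± 1.05 for Fosl2, 1.38 ± 1.35 for Batf3 and 0.539 ± 0.125 for Jdp2. In Tfh cells Fos and Jun, and Jun and Irf4, lay within each other's spread. The same was true in non-Tfh cells of Jund and Junb, of Fos, Batf, Irf4 and Jun, and of Fosl2, Batf3 and Jdp2 as neighbours. Jdp2 was seventh in Tfh cells and last in non-Tfh cells. With the longest transcript in place of the exon union, Batf was at 140 RPKM and Junb at 134 RPKM in Tfh cells, so the order of these neighbours depends on the length used.

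The make-up of the leucine zipper genes was therefore described as shares of the summed level per length of all 9, Irf4 left out. Batf and Batf3 together made up 22.9% and 20.2% in Tfh libraries, against 13% and 8.35% in non-Tfh libraries. Jdp2 made up 1.23% and 1.91% in Tfh libraries, against 0.12% and 0.128% in non-Tfh libraries. Shares of the Jun genes were 66.4% and 66.5% in Tfh libraries, against 75% and 76.8% in non-Tfh libraries, and those of the Fos genes were 9.45% and 11.3% in Tfh libraries, against 11.8% and 14.7% in non-Tfh libraries. Groups did not overlap for any of these 4 shares, and they did not overlap for 52.2% of all genes tested either. The shares sum to a whole and so do not move independently. The Fos shares were close, with 11.3% in the Tfh library T53 and 11.8% in the non-Tfh library T32. The ratio of Batf to the summed Jun genes was 0.344 and 0.304 in Tfh libraries, against 0.166 and 0.108 in non-Tfh libraries. Batf over Irf4, also per length, was 3.44 and 5.29 in Tfh libraries, against 1.14 and 0.973 in non-Tfh libraries. The size of these shares and ratios, all from the exon union, depends on the length used. With the longest transcript Batf was at 140 RPKM in Tfh cells and 64.3 RPKM in non-Tfh cells, against 94.9 and 43.7 RPKM with the exon union. Transcript ratios say nothing of protein amounts, which were not measured.

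**Figure D4:**
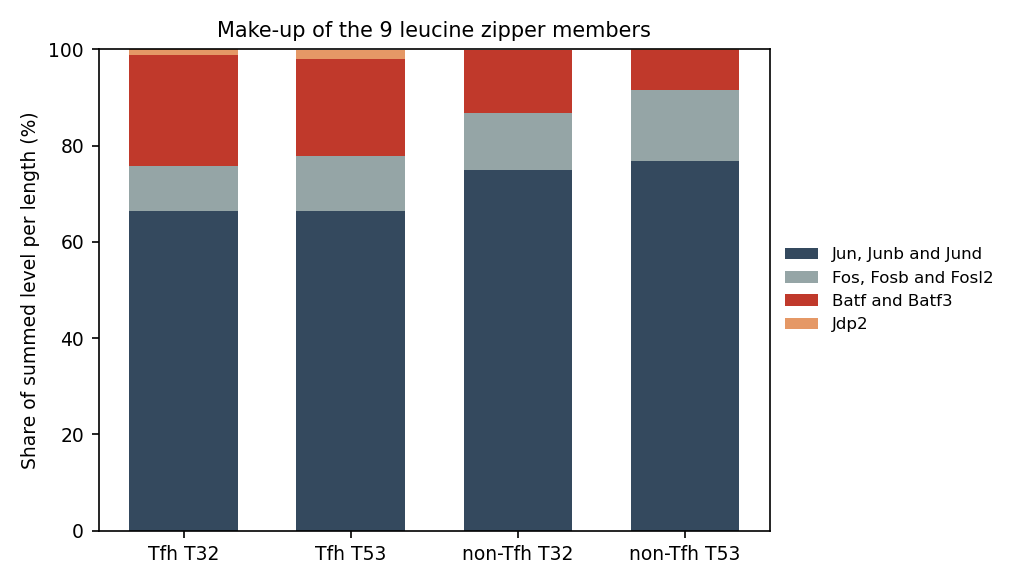
Share of each group of genes, in percent, in the summed level per length of the 9 leucine zipper members, with the 2 Tfh libraries left of the 2 non-Tfh libraries. The Batf and Batf3 share is 22.9% and 20.2% in Tfh libraries, against 13% and 8.35% in non-Tfh libraries.

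The Jun and Fos genes varied between libraries of one fraction as well as between fractions. In T53 libraries 6 of the 9 tested members were higher than in T32 libraries of both fractions (66.7%), against 31.1% of all genes tested. Those 6 were Jun, Junb, Jund, Fos, Fosl2 and Jdp2. Jun differed by 0.51 on the log2 scale between the Tfh libraries and by 0.65 between the non-Tfh libraries, and Fos by 0.46 and 0.66. In each case this was more than the log2 fold change between fractions. Within a library number, Jun was lower in Tfh cells in T32 (79.8 against 101 CPM) and T53 (114 against 158 CPM). Fos was too (82.8 against 93.3 and 114 against 148 CPM), whereas Jund and Fosl2 were higher in T32 and lower in T53. The main test leaves out the library number, and a fit with it as a block is given with the alternatives below. Of 27 other immediate early genes, which stimulation or handling of cells induces within minutes, 19 were higher in T53 libraries of both fractions (70.4%). Of 8 heat shock genes 0 were, and 6 of them were lower in T53 libraries of both fractions (75%), against 31.9% of all genes tested. Beyond that fit, the part of this spread in the member results was not tested, and what T32 and T53 stand for is not given.

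**Figure D5:**
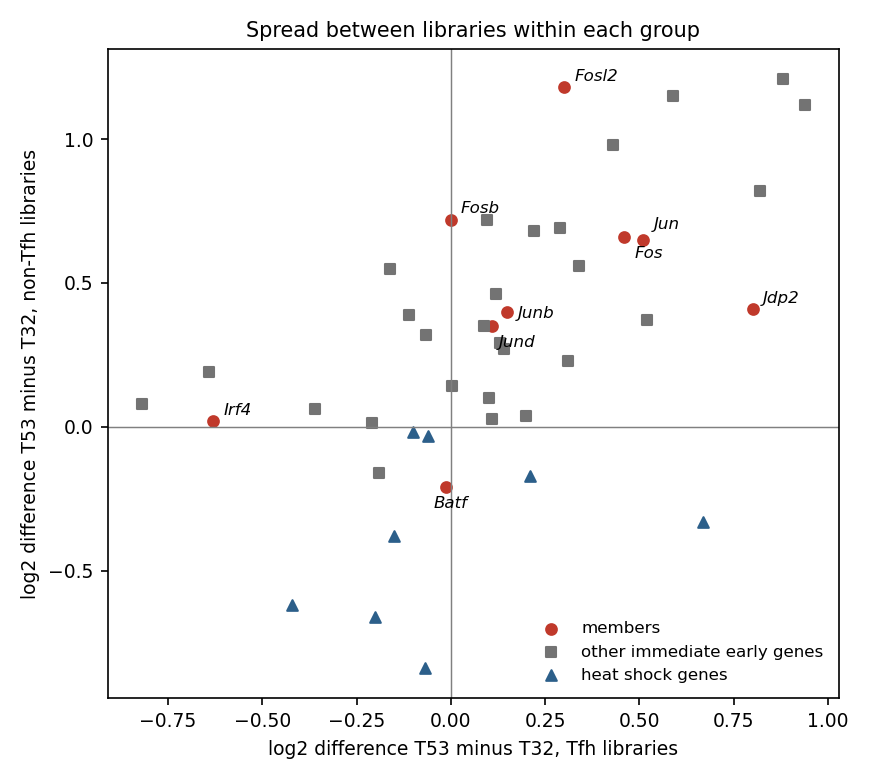
Difference between libraries T53 and T32 within a fraction, on the log2 scale, for Tfh libraries (horizontal) and non-Tfh libraries (vertical), with the 9 tested members in red, other immediate early genes in grey and heat shock genes as blue triangles. Most Jun and Fos genes lie in the upper right with the immediate early genes, and Batf and Irf4 do not.

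Other genes of the pathway were read from lists, each by its count of called genes beside the 4.47% higher and 4.02% lower of all genes and their median log2 fold change of -0.0054. Of 21 tested other AP-1, ATF and related zipper genes, 2 were called higher and 0 lower by edgeR, with a median log2 fold change of 0.16. At an unadjusted p under 0.05 edgeR had 5 higher and 2 lower; DESeq2 called 3 higher and limma-voom 2, and neither called any lower. Both were C/EBP genes, which encode zipper factors best known from myeloid cells. Cebpa was at 145 and 204 CPM in Tfh libraries, against 9.39 and 5.4 CPM in non-Tfh libraries, a log2 fold change of 4.52 ± 0.31 (SE; adjusted p = 0.00186, edgeR). Cebpd was at 6.37 and 4.89 CPM in Tfh libraries, against 1.34 and 1.69 CPM in non-Tfh libraries, a log2 fold change of 1.92 ± 0.35 (adjusted p = 0.0246) that lost its call without the Tfh library T32 (adjusted p = 0.129) or the non-Tfh library T32 (adjusted p = 0.0739). The summed level of 10 macrophage and monocyte markers was 5.28 and 5.76 CPM in Tfh libraries, against 2.61 and 7.53 CPM in non-Tfh libraries, with Cd14 at 0 counts in all libraries. Other AP-1 and ATF genes of that list ranged from abundant to nearly absent. Atf2, named after its values were seen, had 1144 and 550 counts in Tfh libraries, against 1070 and 809 counts in non-Tfh libraries. Fosl1, Batf2 and Atf3 had at most 6 counts in any library. Fosl1 had 1 count in each Tfh library and 1 and 0 counts in non-Tfh libraries, Batf2 none in Tfh libraries and 1 and 0 in non-Tfh libraries, and Atf3 none in Tfh libraries and 0 and 6 in non-Tfh libraries.

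Among the 8 other interferon regulatory factors, all tested, 1 was called higher and 0 lower by edgeR, DESeq2 and limma-voom alike (1 lower at an unadjusted p under 0.05 in edgeR), with a median log2 fold change of -0.15. Irf8, the factor that can stand in for Irf4 at composite sites with Batf, was at 35.3 and 37.2 CPM in Tfh libraries, against 11 and 15.6 CPM in non-Tfh libraries. Tfh libraries were nearly equal and higher, by a log2 fold change of 1.45 ± 0.20 (SE; adjusted p = 0.00999, edgeR), whereas Irf4 values were lower in both Tfh libraries. Irf8 is also expressed in germinal centre B cells and dendritic cells, whose marker sums are given above, and their part in its level was not tested.

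MAP kinase genes upstream of AP-1 and genes for turnover and cofactors of Jun held few called genes, too few to set the lists apart. Of 16 tested MAP kinase genes upstream of AP-1, edgeR, DESeq2 and limma-voom each called 0, edgeR had 1 in each direction at an unadjusted p under 0.05, and the median log2 fold change was 0.014. Map3k1, an abundant member of the list that encodes a kinase upstream of JNK, was at -0.026 ± 0.12 on the log2 fold change scale (95% interval -0.32 to 0.26). Of 13 tested genes for turnover and cofactors of Jun, 1 was called in each direction. That is 7.69% each way, against 4.47% higher and 4.02% lower of all genes. At an unadjusted p under 0.05 edgeR had 2 higher and 3 lower. DESeq2 called 1 in each direction, and limma-voom called 0 higher and 1 lower. Nedd4, a ubiquitin ligase, fell to 2.18 and 1.92 CPM in Tfh libraries, against 9.68 and 13 CPM in non-Tfh libraries, a log2 fold change of -2.44 ± 0.30 (SE; adjusted p = 0.00675). Trib1, a pseudokinase that brings C/EBP alpha to the COP1 ubiquitin ligase, rose to 47.7 and 74.8 CPM in Tfh libraries, against 21.9 and 30.3 CPM in non-Tfh libraries, a log2 fold change of 1.22 ± 0.26 (adjusted p = 0.0453). The Trib1 call was lost without the Tfh library T53 (adjusted p = 0.098), without either non-Tfh library (adjusted p = 0.162 and 0.0707 for T32 and T53) and in limma-voom (adjusted p = 0.0522).

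Immediate early genes other than the members were called in both directions, 2 higher and 3 lower of 27 tested, with a median log2 fold change of -0.27. DESeq2 called 2 higher and 6 lower. Dusp5, a dual-specificity phosphatase gene, was at 12.7 and 14 CPM in Tfh libraries, against 30.2 and 36.4 CPM in non-Tfh libraries, a log2 fold change of -1.33 ± 0.17 (SE; adjusted p = 0.00805, edgeR). Klf6, a zinc finger factor, was at 44.1 and 47.9 CPM in Tfh libraries, against 101 and 139 CPM in non-Tfh libraries, a log2 fold change of -1.39 ± 0.18. Ier2 had a log2 fold change of -0.79 ± 0.12 that lost its call without the Tfh library T32 (adjusted p = 0.0819) or the Tfh library T53 (adjusted p = 0.0554). Gadd45b, a stress-response gene, was higher in Tfh cells, with 44.7 and 47.5 CPM, against 17.4 and 22.3 CPM in non-Tfh cells, a log2 fold change of 1.22 ± 0.17. The other gene called higher, named after its value was seen, was Egr2, a zinc finger factor, with a log2 fold change of 0.74 ± 0.15. Of 8 heat shock genes, edgeR called 0, also at an unadjusted p under 0.05, as did DESeq2 and limma-voom. The most abundant, Hspa8 and Hsp90aa1, were at -0.13 ± 0.17 and -0.25 ± 0.23 on that scale.

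Genes that depend on Batf in mouse helper T cells were called in both directions, 5 higher and 8 lower of 19 tested, with a median log2 fold change of -1.46. DESeq2 called 5 higher and 9 lower, and limma-voom 5 higher and 5 lower. The list mixes Tfh, Th17 and Th2 genes and was drawn up with earlier results of these libraries known. Those higher were Il21, the helper cytokine gene, Il4, Maf, a factor that drives both cytokine genes, Bcl6, the factor that defines the Tfh fate, and Lag3, an inhibitory receptor gene named after its value was seen. Maf was at 919 and 956 CPM in Tfh libraries, against 306 and 285 CPM in non-Tfh libraries, a log2 fold change of 1.67 ± 0.13 (SE; adjusted p = 0.00168, edgeR). Il4 was at 30.2 and 30.7 CPM in Tfh libraries, against 0.819 and 0.45 CPM in non-Tfh libraries. Of 13 listed genes whose regulatory regions hold composite sites for AP-1 and NFAT, 7 were tested, with a median log2 fold change of -0.035. The others, Il2, Il3, Il5, Il13, Csf2 and Ifng, did not pass the count filter. Il4, which is also on the Batf list, was called higher and Il2ra, the high-affinity receptor chain for interleukin 2, lower. DESeq2 called 1 higher and 2 lower, and limma-voom 1 in each direction. Il2ra was at 2.35 and 2.1 CPM in Tfh libraries, against 70.6 and 38.3 CPM in non-Tfh libraries.

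The tested genes whose pattern was nearest to that of Jdp2 over the 4 libraries, by Euclidean distance of centred log2 CPM, were Gm14895, Tox2 and Atp1b1, at distances of 0.32, 0.34 and 0.372. Tox2, an HMG-box factor, was at 64.8 and 91 CPM in Tfh libraries, against 7.23 and 9.33 CPM in non-Tfh libraries. Atp1b1, a sodium pump subunit gene, was at 16.6 and 24.6 CPM in Tfh libraries, against 1.94 and 2.02 CPM in non-Tfh libraries, and Gm14895 had at most 1 count in each non-Tfh library. Nearest to Batf were Fuca2, a fucosidase gene, Xk, which encodes the Kx membrane protein, and Jak2, a cytokine receptor kinase gene, at distances of 0.0288, 0.0733 and 0.103. Jak2 was at 661 and 677 CPM in Tfh libraries, against 310.1 and 293 CPM in non-Tfh libraries. With 4 libraries that share 1 contrast, such likeness describes these values and nothing else.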

How the data were processed

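Stranded total RNA libraries, read as pairs, came from 2 Tfh and 2 non-Tfh samples, grouped by their labels. Each deposited file lists raw gene counts under Ensembl identifiers. The submitters' processing notes name TopHat2, Bowtie2, HTSeq and GRCm38 (mm10); versions, annotation release and strand setting are not given in the sources used here. Symbols, positions and lengths came from GENCODE M21, which matched 37693 of 39179 identifiers; the 1486 others held 0.209 to 0.228% of counts and stayed in the totals. After filterByExpr, 11702 genes were TMM-scaled and tested two-sided with edgeR 4.0.16 in R 4.3.3 (quasi-likelihood, robust dispersions, group only, 2 residual degrees of freedom, Benjamini-Hochberg adjustment, threshold 0.05). CPM levels use the same scaling. SE was derived from the fold change and its F statistic, and intervals use the degrees of freedom of that test. The biological coefficient of variation was 0.156, and libraries of one group differed beyond sampling noise (chi-square per degree of freedom 11.7 for Tfh and 18.7 for non-Tfh). The 13 alternatives covered scaling (RLE, upper quartile), the test (DESeq2 1.42.0, limma-voom with limma 3.58.1), the filter (none, or at least 5 CPM in 2 libraries), non-robust dispersions, the library number as a block, removal of mitochondrial and the 10 most abundant genes, and omission of each library. Python 3.11.15 with pandas 2.3.3 and scipy 1.17.1 made the summaries.

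The members and gene lists were chosen with earlier results of these data known. Named genes were all members, Fosl1, Batf2 and Atf3; up to 4 called genes of each list by smallest p, or its 2 most abundant genes if it had no call; tested genes within 250 kb of the stretch from Fos to Batf; and the 3 genes nearest in pattern to each of the 2 called members. Exceptions are marked, and 1 gene that the rule takes is not reported here. No protein sequences were used here.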

Additional observations from a re-analysis of the deposited data

How the results depend on the processing

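Batf and Jdp2 were the 2 members called higher under every one of the 13 alternatives. The count of members called lower was 0 in the primary test but 2 with DESeq2 (Fosb -0.97, Irf4 -0.86, as log2 fold changes), 4 with no count filter (Jun -0.43, Fosb -0.96, Irf4 -0.85 and Batf3), 2 with the replicate block (Jun -0.40, Fosb -0.89) and 0 to 1 with a library left out; the cause was not tested. Over all genes, 523 higher and 471 lower became 1006 and 980 with no count filter, 1069 and 1051 with the replicate block, and 298 to 454 and 247 to 435 with a library left out, the fewest without the Tfh library T53; the cause was not tested. No other setting moved these counts by over 1.5 times.

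The replicate block, with library numbers T32 and T53 as a block, gave adjusted p of 0.0201 for Jun, 0.0279 for Fosb and 0.052 for Irf4. Same-numbered libraries deviated together (correlation 0.368 over 11702 genes), but no label says that a number marks a shared source.

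Of 117 recomputed member log2 fold changes 101 kept their direction and side of the threshold, 9 passed it anew, 0 lost it and 7 turned sign, all in genes not called. Fosl2 turned to 0.055 in limma-voom and 0.017 with the block. With a library left out Jun ranged from -0.72 to -0.064, Junb from -0.51 to -0.11, Fosb from -1.28 to -0.55, Irf4 from -1.20 to -0.56, Jund from -0.15 to 0.20, Fos from -0.59 to 0.068 and Fosl2 from -0.59 to 0.60. Of 401 for the other named genes 378 kept both, 10 lost the threshold and 13 turned sign, again in genes not called. Eif2b2 turned to 0.0025 and Acyp1 to 0.00014 with at least 5 CPM, and Acyp1 to 0.012 in limma-voom. With a library left out Map3k1 ranged from -0.10 to 0.061, Hspa8 from -0.31 to 0.073, Hsp90aa1 from -0.54 to 0.12, Eif2b2 from -0.18 to 0.22, Mlh3 from -0.13 to 0.094 and Acyp1 from -0.23 to 0.29. With the longest transcript in place of the exon union Fosb was at 4.3 and Fosl2 at 2.62 RPKM in Tfh cells. Batf3 had at most 2 counts in a Tfh library, and intervals were widest for Jdp2 and Fosl2.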
